A study of Mus musculus with 2 samples.

Results

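The 6 microRNA (miRNA) genes described here, Mir337, Mir431, Mir433, Mir127, Mir434 and Mir136, come from a stretch of the imprinted Dlk1-Dio3 region on mouse chromosome 12, and their usual description is that they derive from a transcript antisense to Rtl1. They were chosen by name in the GENCODE M21 annotation, out of 2202 miRNA genes in the tables. Both libraries came from adrenal glands of female adults of the strain 5xFAD/CAST, 8 to 10 months old, and together they form a single group with no contrast of conditions. 5xFAD mice carry transgenes driven by the neuronal Thy1 promoter, and CAST is an inbred strain of castaneus origin. The labels give neither the transgene status of the sampled mice nor the direction of the cross. They call the libraries biological replicates of different biosamples but name 1 donor identifier for both. Whether these were separate animals is unknown, and the SDs below describe a spread that may be technical. The p-values of Fisher's exact test and of the binomial test below allow for counting error only.

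A miRNA gene is transcribed as part of a longer RNA, a hairpin is cut out of it, and 1 of the arms of the hairpin is loaded onto an Argonaute protein, where bases 2 to 8, the seed, select target mRNAs. At the imprinted locus the miRNA transcripts are made from the maternal chromosome, while Rtl1, a gene derived from a retrotransposon and needed in the mouse placenta, is expressed from the paternal one. The miRNAs encoded opposite to the part of Rtl1 kept in its mRNA match that mRNA perfectly, and in mice they are known to direct its cleavage. In adult mice the miRNAs of the region are known mainly from brain. The counts here separate neither the parental alleles nor the arms of a hairpin.

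All 6 genes lie on the plus strand of chromosome 12, within 9.6 kb (mm10). Mir337 (ENSMUSG00000065526.4) occupies 109585789 to 109585885. Mir431 (ENSMUSG00000070080.1) occupies 109590447 to 109590537, and Mir433 (ENSMUSG00000070072.1) occupies 109591715 to 109591838. Mir127 (ENSMUSG00000070076.2) occupies 109592846 to 109592915. Mir434 (ENSMUSG00000070133.1) occupies 109594506 to 109594599, and Mir136 (ENSMUSG00000104858.1) occupies 109595327 to 109595388. The Rtl1 gene of GENCODE M21 runs on the minus strand from 109589193 to 109600330, with its coding part at 109590172 to 109595403. Of the 6 hairpins, 5 lie whole inside that coding part, antisense to it. Mir337 does not: it lies 3.31 kb outside the GENCODE gene, past its 3′ end, and is inside Rtl1 only in the longer RefSeq gene at 109564900 to 109604418. RefSeq also holds a noncoding gene, 6430411K18Rik, with the synonym PEG11as, at 109591537 to 109592851, which covers Mir433 whole.

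The mature arms are printed first because all but those of Mir337 match the Rtl1 transcript. RefSeq (GRCm38.p6, the build of mm10) held hairpins and arms for all 6 genes, and capitals mark the seed.

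miR-337-5p: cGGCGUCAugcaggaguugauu
miR-337-3p: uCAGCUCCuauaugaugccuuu
miR-431-5p: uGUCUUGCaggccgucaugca
miR-431-3p: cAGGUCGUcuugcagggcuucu
miR-433-5p: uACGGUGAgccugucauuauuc
miR-433-3p: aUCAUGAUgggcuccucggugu
miR-127-5p: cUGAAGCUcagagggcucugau
miR-127-3p: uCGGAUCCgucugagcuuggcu
miR-434-5p: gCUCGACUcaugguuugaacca
miR-434-3p: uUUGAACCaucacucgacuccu
miR-136-5p: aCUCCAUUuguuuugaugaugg
miR-136-3p: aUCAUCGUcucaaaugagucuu

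The 12 arms are 21 to 22 bases long and carry 12 different seeds, and no other mature mouse miRNA in the RefSeq table shares any of them. The 6 genes are thus neighbors on 1 strand and not a seed family. For 10 of the 12 arms, all but those of Mir337, the exact complement was found in the Rtl1 transcript of 6358 bases. The site of miR-127-3p spans codons 832 to 839 of Rtl1, and the sites of miR-431-5p and miR-136-5p span codons 1642 to 1649 and 18 to 25. As examples, the sites for the arms of the most and the least abundant hairpin are given as in the Rtl1 mRNA, with the match to the seed in capitals.

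Rtl1 site of miR-127-3p: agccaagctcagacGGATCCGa
Rtl1 site of miR-136-5p: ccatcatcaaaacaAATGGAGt

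No arm occurred in the GENCODE transcript of a gene other than its own, on the same strand, and none of the 6 hairpins shares a 20-base stretch with a miRNA gene elsewhere. Among the 455 miRNA genes tested for a library difference, 96 share such a stretch. The search covered annotated transcripts and not the whole genome. Reads were assigned on mm10, and the part of CAST sequence differences in the counts was not tested.

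Counts are raw reads per hairpin, with its arms not separated, and levels are given as CPM, reads per 1000000 reads on miRNA genes. The main count, column 3 of the tables, was read from the values as that of reads on the strand of the gene. On it the depth was 6924829 reads in replicate 2 and 3635851 in replicate 1. The arms have nearly equal lengths, so that CPM is close to a level per length, though ligation bias differs between sequences. Intervals and floors cover counting error only, since amplified reads that carry no molecular identifier need not be separate molecules. As a check of the tissue, the endocrine cell miRNAs (Mir375, Mir7-1, Mir7-2 and Mir7b) summed to 48363 CPM in replicate 2 and 50709 in replicate 1. The liver marker Mir122 was at 108 CPM in replicate 2 and 78.1 CPM in replicate 1, and the kidney and intestine, striated muscle and pancreas markers summed to between 1.10 and 57.2 CPM in each library. Of the striated muscle markers, Mir1a-1, Mir1a-2, Mir133a-1 and Mir133a-2 had 0 reads, but these genes have copies with the same mature sequence, whose multimapping reads the tables leave unassigned, so that their 0 checks nothing.

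The first question was how the levels of hairpins from 1 stretch compare. Mir127 led by far. It had 108075 reads, or 15607 CPM, in replicate 2 and 86633 reads, or 23827 CPM, in replicate 1, which gave 19717 ± 5813 CPM (SD, n = 2) and rank 18 in replicate 2 and 13 in replicate 1 among all 2202 genes. In the mouse, miR-127 is known for a role in the vessels of the placental labyrinth, and in human cancer cells for repression of BCL6. Its hairpin, with the arms in capitals, is the following.

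Mir127 hairpin: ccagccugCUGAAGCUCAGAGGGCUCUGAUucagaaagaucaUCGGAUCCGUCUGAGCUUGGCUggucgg

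Mir433, whose human counterpart is described as a repressor of HDAC6, came second with 3210.0 CPM in replicate 2 and 3315 CPM in replicate 1, or 3263 ± 74.4 CPM (SD, n = 2). Mir337 stood at 1599 CPM in replicate 2 and 1855 CPM in replicate 1, a mean of 1727 ± 181 CPM. Mir431, linked in mouse sensory neurons to axon regrowth, had 1459 CPM in replicate 2 and 1450.3 CPM in replicate 1, a mean of 1455 ± 6.34 CPM. The SD over the libraries was at most 181 CPM in these 3 hairpins on plain totals, but it depended on scaling. Under TMM the SD was 157 CPM for Mir433, 58.8 CPM for Mir337 and 110 CPM for Mir431. Under DESeq2 size factors it was 198, 37.1 and 128 CPM in the same order.

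Mir434 and Mir136 were lower than these. Mir434 had 407 CPM in replicate 2 and 893 CPM in replicate 1, a mean of 649.9 ± 344 CPM (SD, n = 2). Mir136 was the least abundant, with 72.2 CPM in replicate 2 and 141 CPM in replicate 1, a mean of 107 ± 48.5 CPM, from 500 reads in replicate 2 and 512 in replicate 1. Both lie at the far end of the stretch, nearest to the Rtl1 start codon. Their hairpins, with the arms in capitals, are shown for comparison with that of Mir127.

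Mir434 hairpin: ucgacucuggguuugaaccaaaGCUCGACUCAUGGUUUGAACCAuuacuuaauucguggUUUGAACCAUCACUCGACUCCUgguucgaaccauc
Mir136 hairpin: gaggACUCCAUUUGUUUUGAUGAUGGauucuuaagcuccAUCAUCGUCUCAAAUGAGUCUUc

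The Mir136 hairpin has the lowest share of G and C of the 6, at 40.3%, followed by that of Mir434 at 45.7%. The other hairpins range from 52.6% for Mir337 to 60.4% for Mir431.

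**Figure D1:**
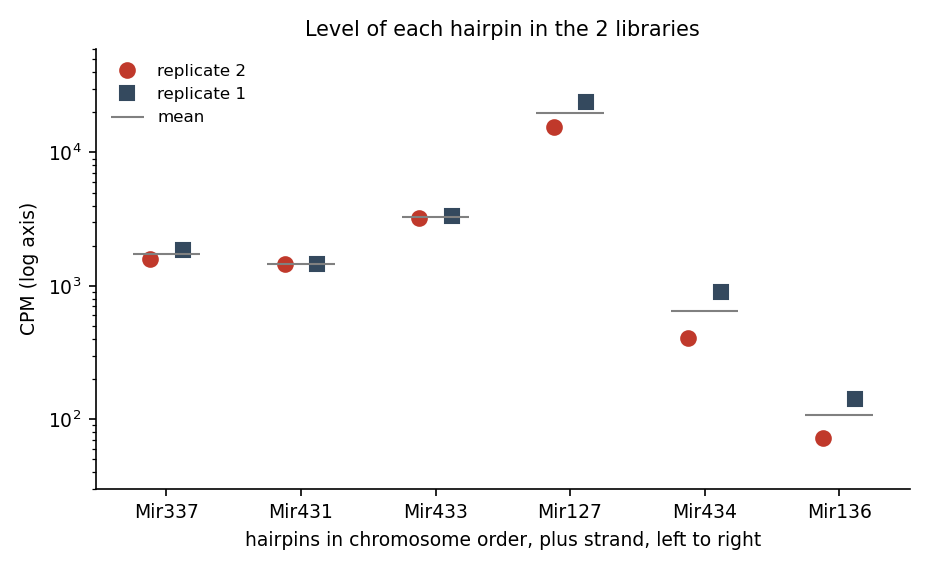
Level of each hairpin in CPM on a log axis, in chromosome order, with replicate 2 as circles, replicate 1 as squares and the mean of both as a line. Mir127 stands far above the others at 15607 CPM in replicate 2 and 23827 CPM in replicate 1, and Mir136 lowest at 72.2 CPM in replicate 2 and 141 CPM in replicate 1.

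The order Mir127, Mir433, Mir337, Mir431, Mir434, Mir136 was the same in both libraries, and no neighbors in it had overlapping values. Each gap between neighboring means was larger than the sum of their SDs. The gap was narrowest for Mir337 over Mir431, at 1.10-fold in replicate 2 and 1.28-fold in replicate 1. From end to end the difference was 216-fold in replicate 2 and 169-fold in replicate 1. The order did not depend on hairpin length: per 100 bases of hairpin the mean levels were 28167 CPM for Mir127, 2631 for Mir433, 1780.1 for Mir337, 1599 for Mir431, 691 for Mir434 and 172 for Mir136. The order of levels was not that of position, since the highest hairpin lies within the stretch, 1.01 kb after Mir433 and 1.59 kb before Mir434.

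Together the 6 hairpins took 2.24% of the miRNA reads in replicate 2, with an exact 95% interval by Clopper and Pearson of 2.22 to 2.25%. They took 3.15% in replicate 1 (3.13 to 3.17%), for a mean of 2.69% ± 0.645 (SD, n = 2). Mir127 held most of this. Of the reads of the 6 it took 69.8% in replicate 2 (69.6 to 70.0%) and 75.7% in replicate 1 (75.4 to 75.9%). Mir433 contributed 14.4% (14.2 to 14.5%) in replicate 2 and 10.5% (10.4 to 10.7%) in replicate 1. These shares do not depend on the library total, and for all 6 hairpins the intervals of the libraries did not overlap. Mir337, Mir431 and Mir433 took more of the locus in replicate 2, and Mir127, Mir434 and Mir136 took more in replicate 1.

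**Figure D2:**
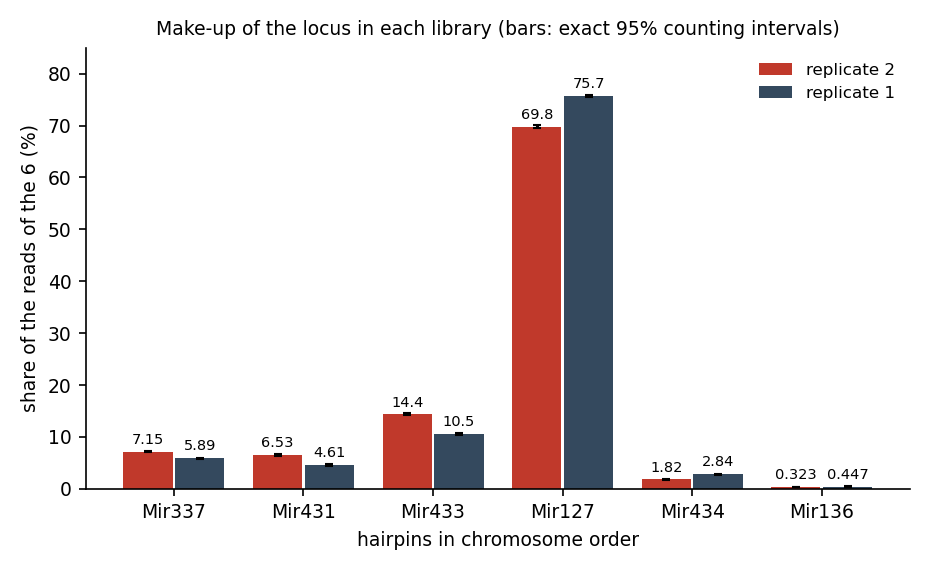
Share of each hairpin in the reads of the 6, in percent, for replicate 2 (left bar) and replicate 1 (right bar), with exact 95% counting intervals. Mir127 makes up 69.8% in replicate 2 and 75.7% in replicate 1, while Mir136 stays under 1 percent in both.

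The next question was whether the hairpins differed between the libraries by the same factor. They did not. Mir434 fell most, with a log2 ratio of CPM (replicate 2 over replicate 1) of -1.13 (95% interval -1.21 to -1.06) and an adjusted p of 2.24e-202. The test was Fisher's exact one, two-sided, with Benjamini-Hochberg adjustment over the 455 genes that had at least 10 reads in the libraries together. Mir136 had a log2 ratio of -0.96 (-1.14 to -0.78; adjusted p = 3.19e-25, Fisher's exact test). Mir127 had a log2 ratio of -0.61 (-0.62 to -0.60), with a p too small for the program to represent. These 3 lay lower in replicate 2 under each scaling tried, TMM and DESeq2 size factors included.

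For the other members the call or the direction depended on scaling. Mir337 had a log2 ratio of -0.21 (-0.26 to -0.17; adjusted p = 4.80e-21, Fisher's exact test), but under DESeq2 size factors -0.04 and an adjusted p of 0.0883. Mir433 had a log2 ratio of -0.05 (-0.08 to -0.01; adjusted p = 0.00937, Fisher's exact test), which turned to 0.10 under TMM and 0.12 under DESeq2 size factors. Mir431 had a log2 ratio of 0.01 (-0.04 to 0.06; adjusted p = 0.808, Fisher's exact test), and of 0.15 and 0.18 under those scalings. The median log2 ratio of all tested genes was -0.18, and TMM shifted every ratio by 0.14 and DESeq2 size factors by 0.17. Relative to that median, Mir431 stood at 0.19, Mir433 at 0.13 and Mir337 at -0.03, against -0.43 for Mir127, -0.78 for Mir136 and -0.95 for Mir434.

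In all, 5 of the 6 hairpins were called lower in replicate 2 and 0 higher. Over all tested genes 35.6% were called lower and 16.9% higher, 162 and 77 genes. With TMM the calls over all genes were 125 lower and 112 higher, and 4 of the 6 hairpins were called lower and 2 higher. With DESeq2 size factors they were 121 lower and 118 higher, and 3 lower and 2 higher among the 6. The median log2 ratio was -0.41 over the 6, beside -0.18 over all genes tested, whose quartiles were -0.65 and 0.25. Among all 455 tested genes, 8.35% had a ratio at or below that of Mir434, 11.9% at or below that of Mir136 and 27.0% at or below that of Mir127. The Fisher calls concern a pair of libraries and not a condition, and take no account of spread beyond counting. The exact test of edgeR took its common dispersion (biological coefficient of variation 32.2%) from the same libraries that it then compared, so that the difference tested sets its own spread and few calls can be made. By it 0 of the 6 were called, and 0.659% of all tested genes, 3 of 455. Without adjustment, p was under 0.05 for 0 of the 6 and for 23 of all. Its unadjusted p was 0.0925 for Mir434, 0.156 for Mir136 and 0.360 for Mir127, and its adjusted p was 1 for each of the 6.

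**Figure D3:**
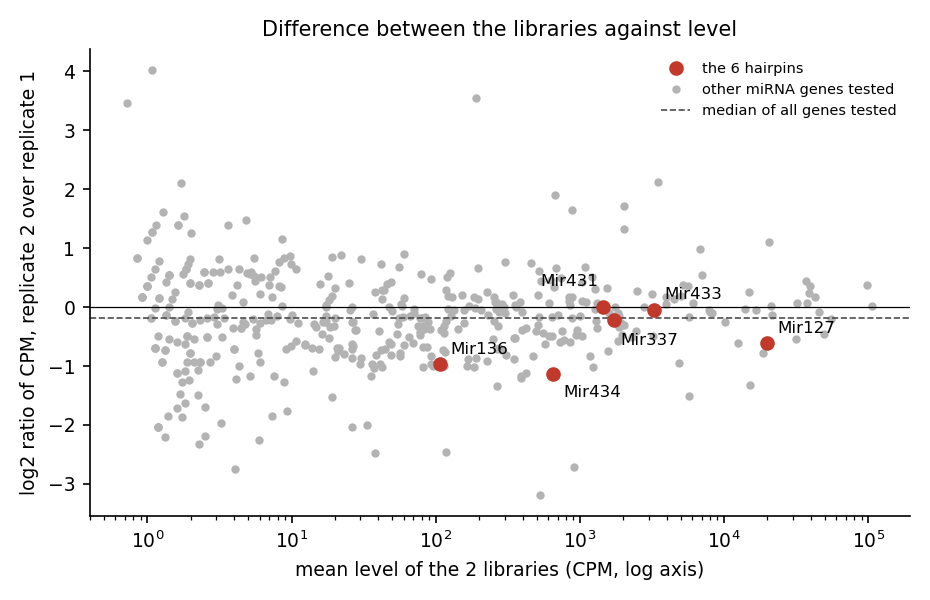
Log2 ratio of CPM (replicate 2 over replicate 1, plain totals) against mean level in CPM on a log axis for the 455 tested genes, with the 6 hairpins in red and the median of all genes, -0.18, as a dashed line. Mir434, Mir136 and Mir127 lie below the median, and Mir431 and Mir433 lie above it; Mir433 changes sign under TMM and DESeq2 size factors.

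The difference between members can be read without any library total. For every read of Mir433, replicate 2 held 4.86 reads of Mir127 and replicate 1 held 7.19. For every read of Mir434, replicate 2 held 3.59 reads of Mir431 and replicate 1 held 1.62. For every read of Mir136, replicate 2 held 5.63 reads of Mir434 and replicate 1 held 6.34. Mir434 and Mir136, 0.727 kb apart, had log2 ratios of -1.13 and -0.96. Those of Mir431 and Mir433, 1.18 kb apart, lay closer together, at 0.01 and -0.05. Nearness did not always go with like ratios. Mir540, another miRNA gene of the stretch, starts 0.291 kb after the start of Mir337, and their ratios were 0.18 and -0.21. Along the strand, the ratios of the first 3 hairpins lay between -0.21 and 0.01 and those of the last 3 between -1.13 and -0.61, a split noticed after the values were seen. Mir434 and Mir136, lowest in G and C, also had the lowest ratios. Across the 455 tested genes Spearman's rho between the G and C content of the hairpin and the log2 ratio was 0.026, as a description over genes that share the same libraries. The part of base composition in these differences was not tested.

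Marker sums of other cells in the gland are given on plain totals. Their log2 ratios were -0.45 for endothelium, -1.29 for red cells, -0.15 for smooth muscle and -0.35 for neurons. The median over all tested genes was -0.18, with quartiles of -0.65 and 0.25, and of these sums only that of red cells lay outside the quartiles. TMM shifts every ratio by 0.14 and DESeq2 size factors by 0.17. Endothelial Mir126a was at 41532 CPM in replicate 2 and 56684 CPM in replicate 1, and the red cell miRNAs Mir451a and Mir144 together were at 175 CPM in replicate 2 and 427 CPM in replicate 1. Smooth muscle Mir143 and Mir145a summed to 21489 CPM in replicate 2 and 23925 CPM in replicate 1. The neuronal markers, 3 of 9 with enough reads to be tested and led by Mir137, summed to 530.3 CPM in replicate 2 and 675 CPM in replicate 1. The 3 tested markers did not move together. Mir137 was at 470 CPM in replicate 2 and 640 CPM in replicate 1. Mir128-1 (52.4 and 31.6 CPM) and Mir128-2 (7.22 and 2.48 CPM) were instead higher in replicate 2. The counts of Mir128-1 and Mir128-2 leave out multimapping reads, and how many of those belong to them is unknown. Of the neuronal markers, Mir9-1, Mir9-2, Mir124a-1 and Mir124a-2 had 0 reads. This says nothing of neurons, as these genes too have copies with the same mature sequence. The part of the cell makeup of the samples in the ratios of the 6 hairpins was not tested. In bulk tissue, fewer cells of a type and less RNA per cell cannot be told apart.

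Other miRNA genes lie among the 6. The stretch from 1 kb before Mir337 to 1 kb after Mir136 holds 7 more, of which 5 had enough reads to be tested, 2 were called higher in replicate 2 and 0 lower by Fisher's exact test, beside 16.9% higher and 35.6% lower over all tested genes, and the median log2 ratio was -0.01. Mir540, which starts 0.291 kb after the start of Mir337, had 934 CPM in replicate 2 and 826 CPM in replicate 1, a log2 ratio of 0.18 (adjusted p = 6.94e-08, Fisher's exact test; unadjusted p = 0.790 by edgeR's). Mir665 had 78.0 CPM in replicate 2 and 41.8 CPM in replicate 1, a log2 ratio of 0.90 (adjusted p = 3.95e-12, Fisher's exact test; unadjusted p = 0.189 by edgeR's). Mir540 was thus more abundant than Mir434 in replicate 2 and less abundant in replicate 1. Mir3070a and Mir3070b, which share sequence with each other and whose counts are uncertain, averaged 9.88 ± 3.15 and 17.3 ± 0.00106 CPM (SD, n = 2). Mir432, which lies between Mir434 and Mir136, had 0 reads on its own strand in both libraries, and 2 on the other strand in replicate 2. The 0 allows up to 0.433 CPM in replicate 2 and 0.825 CPM in replicate 1.

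On the plus strand of the whole imprinted region, taken as the miRNA genes from Mir1906-1 to Mir3072, the 6 hairpins supplied 36.9% of the miRNA reads in replicate 2 and 48.5% in replicate 1. The genes from Mir379 onward, known as the Mirg cluster, supplied 58.8% in replicate 2 and 48.1% in replicate 1. Of these 39 genes 34 were tested, with 7 called higher in replicate 2 and 20 lower by Fisher's exact test. Over all tested genes the shares were the same 16.9% and 35.6%. The median log2 ratio of the 34 was -0.27. Calls for this and the other lists of the region are on plain totals and were not counted under TMM or DESeq2 size factors. Those shift every ratio by 0.14 and 0.17. Over all tested genes they gave 125 lower and 112 higher, and 121 lower and 118 higher. By edgeR's exact test the adjusted p was 1 for every tested gene of the region, and the lowest unadjusted p among these 34 was 0.144, for Mir379. Their 3 most abundant members were Mir411, with 7742 CPM in replicate 2 and 8188 CPM in replicate 1, Mir379, with 9029.7 CPM in replicate 2 and 4579.7 CPM in replicate 1, and Mir382, with 5855 CPM in replicate 2 and 4538 CPM in replicate 1. Mir411 shares sequence with Mir758, so its count is uncertain. Mir127 exceeded each of these 3 in both libraries. Before the stretch, 3 of 4 genes were tested and 0 were called; of these, Mir673 had an unadjusted Fisher p of 0.0414, and edgeR's lowest unadjusted p was 0.797, for Mir493. Between the stretch and Mir379, 1 of 3 tested genes was called, Mir341 with a log2 ratio of 0.67. Of all tested genes of the region, Mir434 had the lowest ratio.

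**Figure D4:**
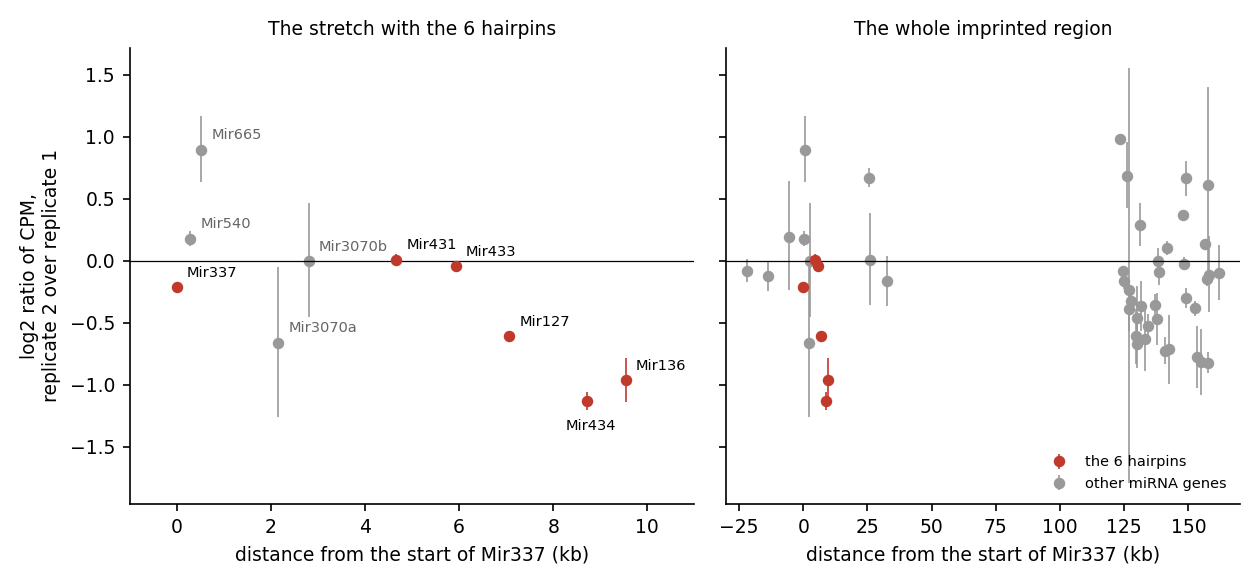
Log2 ratio of CPM (replicate 2 over replicate 1, plain totals) against distance from the start of Mir337 in kb, with 95% counting intervals, for the 6 hairpins (red) and other plus-strand miRNA genes (grey); the left panel enlarges the stretch that holds the 6. Mir434 at -1.13 is the lowest tested gene of the region, and Mir431 and Mir433 lie near 0, with Mir433 changing sign under TMM and DESeq2 size factors.

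The strand of the reads matters for 2 of the hairpins, because a miRNA gene is annotated on the opposite strand at the same place. Mir3544 lies opposite Mir337, and Mir3071 lies opposite Mir136. Their arms are shown, with seeds in capitals, to set them beside the arms of Mir337 and Mir136 printed above.

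miR-3544-5p: aGAAAGGCaucauauaggagcug
miR-3544-3p: aCUCCUGCaugacgccguuccc
miR-3071-5p: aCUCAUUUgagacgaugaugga
miR-3071-3p: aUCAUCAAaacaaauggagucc

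In the column that does not separate strands (column 2), Mir337 had 25 reads in replicate 2 and 12 in replicate 1, while its own strand had 11070 in replicate 2 and 6744 in replicate 1. Mir136 had 0 reads in that column in both libraries, while its own strand had 500 in replicate 2 and 512 in replicate 1. The other 4 hairpins, with no miRNA gene opposite, had identical counts in both columns. The opposite-strand counts at Mir3544 (11070 and 6744 in replicates 2 and 1) and Mir3071 (500 and 512) equalled the own-strand counts of Mir337 and Mir136. Ambiguous reads were 5.24% in replicate 2 and 6.12% in replicate 1 in column 2, and 0% in column 3. Column 2 was thus read as leaving out reads that overlap 2 genes. Its count for Mir337 then holds no read of the strand of Mir337. Opposite-strand reads at Mir337 made up 1.24% of the reads of both strands in replicate 2, with an exact interval of 1.04 to 1.46%. In replicate 1 they made up 1.27% (1.02 to 1.57%), and the intervals overlapped. At Mir136 there were 2 opposite-strand reads in replicate 2 and 1 in replicate 1, or 0.398% in replicate 2 (0.0483 to 1.43%) and 0.195% in replicate 1 (0.00494 to 1.08%). On the strand of Mir3544 itself 114 reads were counted in replicate 2 and 75 in replicate 1, and on that of Mir3071 2 in replicate 2 and 1 in replicate 1. At Mir127, Mir431, Mir433 and Mir434, where the opposite strand is the coding strand of Rtl1, 0 opposite-strand reads were counted. For Mir127 this allows opposite-strand reads up to 0.00278% of its own count in replicate 2 and 0.00346% in replicate 1.

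The miRNA genes closest to Mir127 in level over both libraries (Euclidean distance in log2 CPM over 2 values) were Mir99a at 0.18, Mir143 at 0.41 and Mir26b at 0.48. Mir99a had 13816 CPM in replicate 2 and 23677 CPM in replicate 1, a log2 ratio of -0.78, while Mir143 and Mir26b had -0.14 and 0.01. With 2 libraries of 1 group, this likeness is only one of level and ratio.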

How the data were processed

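Small RNA was sequenced in 2 libraries of 1 group. For each library the authors deposited raw counts per miRNA gene, made on mm10 with GENCODE M21 per their notes. Aligner and counter, like the meaning of the 3 unnamed columns, are not given in the sources. From the values, column 2 was read as both strands, less reads that overlap 2 genes. Column 3 was read as the strand of the gene and column 4 as the other strand. The tables leave multimapping reads, 33.6% of reads in replicate 2 against 31.6% in replicate 1, unassigned, and entries that name no gene were left out of totals. Column 3 was the main count.

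Log2 ratios used an offset of 0.5 counts, and their intervals came from exact binomial intervals at 95%. Genes with at least 10 reads in both libraries together were tested by Fisher's exact test with Benjamini-Hochberg adjustment over all of them, at a threshold of 0.05. TMM and DESeq2 size factors (exact binomial test with scaled totals), edgeR's exact test with the common dispersion of an intercept-only model, column 2, other totals, offsets and filters were alternatives. Only Fisher's exact test was tried on simulated counts. These held counting error and no further spread between libraries, so they cannot show how often it calls falsely here. All 6 members, the other genes of their stretch, the 3 most abundant genes of the rest of the region and the 3 profiles closest to Mir127 were named by rule. Mir341 and the markers were named besides. The members and lists were chosen with earlier results of these data known. All 2202 gene identifiers matched GENCODE M21. Tools were Python 3.11.15 with scipy 1.17.1, ViennaRNA 2.7.2, edgeR 4.0.16, DESeq2 1.42.0 and R 4.3.3.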

Additional observations from a re-analysis of the deposited data

Results flagged for a closer look

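Reads on the strand opposite to Mir337 lie outside the main count and exceed the 3 reads that a count of 0 allows, with 139 in replicate 2 and 87 in replicate 1. Mir3544, annotated there, had 114 reads on its own strand in replicate 2 and 75 in replicate 1. Of the other 5 hairpins, 4 had 0 opposite-strand reads and Mir136 had 2 in replicate 2 and 1 in replicate 1.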

How the results depend on the processing

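With count column 2, levels moved to 3.94 CPM for Mir337, 1660.0 for Mir431, 3724 for Mir433 and 0 for Mir136, and the shares to 0.0143% for Mir337, 78.1% for Mir127 and 0% for Mir136. The log2 ratio became 0.075 for Mir337, on 25 reads in replicate 2 and 12 in replicate 1, and -0.015 for Mir431, and 3 hairpins were called lower. Mir337 and Mir136 are the hairpins with a miRNA gene on the opposite strand, and Mir136, with 0 reads, has no ratio in that column. The column 2 level, share and ratio of Mir337 hold no read of its own strand, so they do not measure this hairpin. Scaled to all reads, the levels of Mir337, Mir431, Mir433, Mir127, Mir434 and Mir136 were 793, 667, 1497, 9082, 300.3 and 49.2 CPM, and the ratio of Mir431 was -0.047. Relative to the sum of the 6, the ratios were 0.28, 0.50, 0.45, -0.12, -0.64 and -0.47 in the same order. TMM gave 0.10 for Mir433 and 0.15, now called, for Mir431, with 2 hairpins called higher. DESeq2 size factors gave 0.12 for Mir433, 0.18, now called, for Mir431 and -0.044, no longer called, for Mir337, with 3 called lower and 2 higher, and 118 genes of all called higher. Under edgeR's exact test the ratios of -0.21, -0.047, -0.61, -1.13 and -0.96 (all but Mir431) were no longer called, with 0 of the 6 and, of all genes, 2 lower and 1 higher. Offsets of 0 and 1 counts turned no direction among the 6, and minimums of 1 and 100 reads left 5 called lower and 0 higher. Leaving out a replicate leaves each level and share at the value of the other library, from 72.2 to 141 CPM for Mir136 and from 15607 to 23827 CPM for Mir127. A library difference cannot be computed from 1 library. No paired analysis was possible because there is only 1 group.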

Other observations

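The predicted folding energies of the 6 hairpins (RNAfold) ran from -49.4 kcal/mol for Mir337 to -28.2 kcal/mol for Mir136, with -43.4 for Mir431, -44.8 for Mir433, -35.1 for Mir127 and -37.4 for Mir434. The hairpin with the highest level thus had neither the lowest nor the highest energy. The arms of Mir431 have a stretch of 10 bases in common, and those of Mir434 a stretch of 9 bases, whereas in the other 4 hairpins the longest common stretch is 4 or 5 bases.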
